A study of Homo sapiens with 4 samples.

Results

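Keratins build the intermediate filaments of epithelial cells, and keratin-associated proteins embed these filaments in the hair shaft. The table of the study holds 97 such genes among 19215: 55 keratin genes and 42 keratin-associated protein genes, chosen by their symbols alone. Of the 97, 13 reached 1 FPKM in at least 2 of the 4 libraries and are the members listed and tested below. FPKM counts fragments per kilobase of transcript and per library size, so levels of different genes can be compared. The listing rested on the FPKM values themselves, which are given here as a description of level.

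The cells were C28/I2, an immortalised human chondrocyte line, kept in medium with 10% serum and 1% antibiotics. Of the 4 RNA-seq libraries, 2 came from cells given 25 ng/mL FABP4 for 48 h and 2 from cells given 0.5% DMSO for 48 h. FABP4 is a fatty acid-binding protein of fat cells that is also secreted. The labels do not say if the FABP4 cells had DMSO too, so an effect of the vehicle and one of the protein cannot be told apart. Nothing in the labels states that replicates were separate cultures, so p-values measure the spread between these libraries, which may be technical.

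A keratin filament forms from pairs of 1 type I and 1 type II chain. The simple epithelial pair KRT8 and KRT18 is found in single-layered epithelia and also in many cultured cell lines. The hair keratins, such as KRT81, KRT86 and KRT34, are the filaments of the hair cortex, and the keratin-associated proteins are small cysteine-rich or glycine- and tyrosine-rich proteins that surround them. Hair keratins are known from hair and nail rather than from cartilage.

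With FABP4, 2 of the 13 listed genes fell and none rose. KRTAP2-3, a hair shaft keratin-associated protein gene, fell to 0.466 times the DMSO level, and KRT80, a type II keratin gene of many epithelia, to 0.615 times. Of all 12490 tested genes, 0.296% were called lower, and as many higher. The members were singled out with earlier results of these data known, KRTAP2-3 among them, so the count is a description. Both FABP4 libraries lay below both DMSO libraries in 11 of the 13 listed genes, against 16.1% of all tested genes, and 1 gene, KRT10, had both FABP4 libraries above, against 20.7%. The log2 fold change was below 0 in 12 of the 13, against 46.0% of all tested genes, and an unadjusted limma p under 0.05 with a lower level was found in 7 of 13, against 4% of all tested genes. KRTAP1-5 entered the list only through its DMSO values, so its lower level was built into its listing. KRT34 reached 1 FPKM in 2 DMSO libraries and 1 FABP4 library, so its listing also rested partly on DMSO. Both genes are counted in these shares, the 7 of 13 included, and in the median that follows. The median log2 fold change was -0.38 over the 13 and 0.014 over all tested genes.

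**Figure D1:**
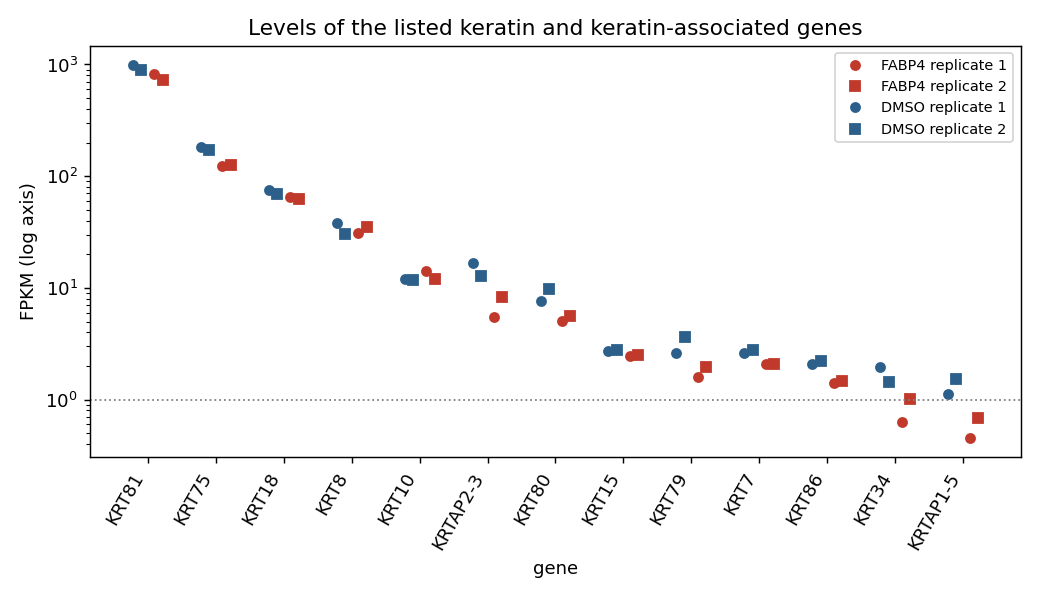
FPKM (log axis) of the 13 listed genes in each of the 4 libraries, ordered by mean level, with blue for DMSO, red for FABP4 and the dotted line at 1 FPKM. KRT81 stands between 731.73 and 996.8 FPKM, and KRTAP1-5 between 0.45 and 1.52 FPKM.

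KRT81, a type II hair cortex keratin gene, was the most abundant member by far. It ranked 79 of 19215 genes by mean level in the DMSO libraries. Its level was 813.91 and 731.73 FPKM in FABP4 replicates 1 and 2, and 996.8 and 897.5 FPKM in DMSO replicates 1 and 2. Both FABP4 libraries were below both DMSO libraries. The means were 773 ± 58.1 and 947 ± 70.2 FPKM (SD, n = 2 each), and the difference did not pass (limma log2 fold change -0.29 with an SE of 0.17, adjusted p = 0.636). KRT81 made up 73.4 to 76.0% of the summed FPKM of all 97 members in every library. Of 60 windows of 50 bases along the longest KRT81 transcript, 40.0% also occur in other genes, and 22 of the 60 in KRT86. How reads from such stretches were assigned is not given in the sources used here.

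KRT86, another type II hair cortex keratin gene, spans KRT81 on chromosome 12, on the opposite strand, and resembles it in sequence. Of 60 windows of 50 bases along the longest KRT86 transcript, 40.0% also occur in other genes, and 19 of the 60 in KRT81. KRT86 had 1.41 and 1.47 FPKM with FABP4 against 2.1 and 2.23 FPKM with DMSO. KRT81 stood at 402 to 577 times the KRT86 level, so the KRT86 values are uncertain. The exons of KRT86 also overlap those of AC021066.3 on the same strand by 126 bases (5.3%). The groups did not overlap, but the difference did not pass (limma log2 fold change -0.38 with an SE of 0.14, adjusted p = 0.324).

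KRT34, a type I hair cortex keratin gene, was close to the listing threshold. It had 0.63 and 1.01 FPKM with FABP4 against 1.95 and 1.43 FPKM with DMSO, about 11 and 17 against 36 and 27 fragments. Both FABP4 values were below both DMSO values. The difference did not pass (limma log2 fold change -0.56 with an SE of 0.16, adjusted p = 0.152). With a pseudocount of 0.1 in place of 1 the KRT34 log2 fold change was -0.98. The other 14 hair and nail keratin genes of the 17 in the table were not listed, among them KRT83 and KRT85, which stayed at or below 0.1 FPKM in all libraries.

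KRT75, a type II keratin gene of the hair follicle's companion layer, was the second most abundant member. It had 123.4 and 126.59 FPKM with FABP4 against 183.3 and 172.35 FPKM with DMSO. The groups lay apart by more than their spread, with means of 125 ± 2.26 and 178 ± 7.74 FPKM. In limma the difference did not pass (limma log2 fold change -0.50 with an SE of 0.13, adjusted p = 0.0956). The authors' deposited table does call KRT75, with a log2 fold change of -0.55 and a DESeq2 q of 6.16e-06. The KRT75 values rest on about 2951 to 4716 fragments a library. None of 60 windows of 50 bases along its transcript occurs in another gene. Its exons overlap those of AC055736.1 on the opposite strand by 221 bases (9.5%). Strandedness is not given in the sources used here, so reads there cannot be told apart. Without 1 library in turn its log2 fold change stayed between -0.55 and -0.46. It was called in limma with the libraries scaled to equal totals (limma adjusted p = 0.00163) and with robust variance moderation (limma adjusted p = 0.0468). Over its 13 alternatives the adjusted p of KRT75 in limma ran from 0.00163 to 0.343.

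KRTAP2-3 codes for a cysteine-rich protein of the hair cortex, and its gene is a single exon. It had 5.44 and 8.29 FPKM with FABP4 against 16.77 and 12.68 FPKM with DMSO. The FABP4 values were all lower, with means of 6.87 ± 2.02 and 14.7 ± 2.89 FPKM. These stand for about 40 and 57 against 127 and 99 fragments. The gene fell by 1.01 on the log2 scale (SE 0.16 and adjusted p = 0.00762 in limma), and 0.0160% of the tested genes had a lower log2 fold change than KRTAP2-3. In the authors' deposited table KRTAP2-3 has a log2 fold change of -1.08 and a DESeq2 q of 0.0286. The log2 fold change of KRTAP2-3 ran from -1.28 to -0.75 with 1 library left out. Such a fit leaves 1 library in a group, which then shows no spread of its own. Dropping the filter on low values ended the call (limma adjusted p = 0.550) as did quantile normalization (limma adjusted p = 0.0752). Over its 13 alternatives the adjusted p of KRTAP2-3 in limma ran from 2.17e-09 to 0.550. The lowest came with the libraries scaled to equal totals. The limma variance is moderated over all tested genes, so such a p-value does not measure the spread of KRTAP2-3 alone.

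The table holds 3 other genes of the KRTAP2 group. KRTAP2-4 had 0.18 FPKM in DMSO replicate 1 and was listed at 0 in the other libraries, while KRTAP2-1 and KRTAP2-2 were listed at 0 throughout. The coding sequence of 387 bases differs from that of KRTAP2-4 at 1 base and from that of KRTAP2-1 at 2. Coding bases 303 to 362 are shown because they hold the base, in capitals, at which KRTAP2-3 stands apart from both.
KRTAP2-3: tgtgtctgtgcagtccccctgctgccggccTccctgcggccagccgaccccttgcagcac
KRTAP2-4: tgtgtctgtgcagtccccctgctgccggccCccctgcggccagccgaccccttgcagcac
KRTAP2-1: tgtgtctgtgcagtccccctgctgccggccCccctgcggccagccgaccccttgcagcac
Of 60 windows of 50 bases along the KRTAP2-3 transcript, 38.3% also occur in other genes. How reads from such stretches were assigned is not given in the sources used here, so the KRTAP2-3 level is uncertain to that extent.

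KRTAP1-5, of the same cysteine-rich hair cortex group, was the other listed keratin-associated protein gene. It had 0.45 and 0.68 FPKM with FABP4 against 1.12 and 1.52 FPKM with DMSO, about 5 and 7 against 13 and 18 fragments. The difference did not pass (limma log2 fold change -0.57 with an SE of 0.16, adjusted p = 0.145). With a pseudocount of 0.1 the log2 fold change of KRTAP1-5 was -1.10. In the authors' deposited table it has a q of 0.952. Just outside the listing were KRTAP3-1, with 0.25 and 0 FPKM against 0.95 and 0 FPKM, and KRTAP5-9, with 0.54 and 0.48 FPKM against 0.52 and 0.67 FPKM. Of the 42 keratin-associated protein genes, 17 were listed at 0 in all 4 libraries. Their summed level was 8.09 and 11.49 FPKM with FABP4 against 20.36 and 17.72 FPKM with DMSO, and most of it was KRTAP2-3.

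The stretches of 250 bases before the RefSeq starts of KRTAP2-3, KRTAP1-5 and KRT34 are shown because these genes had the 3 lowest FABP4 to DMSO ratios among the 7 listed genes with an entry. They come from RefSeq (GRCh38.p14), on the minus strand, written along the gene from 5′ to 3′. The RefSeq start of KRT34 lies inside the GENCODE 29 gene, so 97 of its 250 bases are within that gene, against 0 for both keratin-associated protein genes. Capitals mark each TATAAA, the core of the TATA box that positions transcription starts.
KRTAP2-3, chr17:41060115-41060364: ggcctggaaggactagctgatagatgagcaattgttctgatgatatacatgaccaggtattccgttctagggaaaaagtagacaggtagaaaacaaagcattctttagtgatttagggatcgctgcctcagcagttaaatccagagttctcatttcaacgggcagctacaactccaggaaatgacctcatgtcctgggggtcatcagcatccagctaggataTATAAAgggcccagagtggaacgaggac
KRTAP1-5, chr17:41027209-41027458: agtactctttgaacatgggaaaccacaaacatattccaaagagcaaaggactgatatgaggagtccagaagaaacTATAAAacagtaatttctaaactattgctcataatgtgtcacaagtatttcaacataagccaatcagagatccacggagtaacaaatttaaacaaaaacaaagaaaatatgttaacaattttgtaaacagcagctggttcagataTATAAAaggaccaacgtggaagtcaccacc
KRT34, chr17:41382307-41382556: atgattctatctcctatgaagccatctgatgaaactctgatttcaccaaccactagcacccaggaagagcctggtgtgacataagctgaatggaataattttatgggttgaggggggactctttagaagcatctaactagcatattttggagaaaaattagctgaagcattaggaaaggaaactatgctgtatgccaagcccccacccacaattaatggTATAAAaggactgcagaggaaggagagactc
The capitals start at position -28 from the start in KRTAP2-3, at -31 in KRT34 and at -30 in KRTAP1-5, which holds a second copy farther away. Of the 71 members with an entry, 47 hold TATAAA on either strand in this window, against 10.7% of all 35116 promoters of the same length. Of the 7 listed members with an entry, 4 hold it, and KRT75, KRT79 and KRT8 do not. The AP-1 motif TGANTCA, searched on both strands because AP-1 is a known regulator of some epidermal keratin genes, was found in 5 of the 71 and in 6.6% of all promoters. It was in none of the 7 listed, which says only that these letters are not in these windows, and no overlap with TATAAA could arise there. These matches are a description of sequence.

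KRT80 had 5.05 and 5.64 FPKM with FABP4 against 7.63 and 9.75 FPKM with DMSO. The FABP4 libraries lay below both others, and the means were 5.35 ± 0.417 and 8.69 ± 1.50 FPKM. The gene fell by 0.60 on the log2 scale (SE 0.13 and adjusted p = 0.0496 in limma), just past the threshold. The authors' deposited table gives KRT80 a log2 fold change of -0.70 and a DESeq2 q of 0.00324. In 7 of its 13 alternatives limma no longer called KRT80. Leaving out FABP4 replicate 1 gave a limma adjusted p of 0.147 and leaving out DMSO replicate 2 gave 0.233, and over all 13 it ran from 0.00502 to 0.532. None of 60 windows of 50 bases along the KRT80 transcript occurs in another gene.

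Neither chain of the simple epithelial pair passed the test. KRT18, the type I partner, had 65.68 and 61.86 FPKM with FABP4 against 74.93 and 68.87 FPKM with DMSO (limma log2 fold change -0.17 with an SE of 0.12, adjusted p = 0.767). KRT8, the type II partner, had 30.93 and 34.82 FPKM against 38.12 and 30.21 FPKM, and its groups overlapped (limma log2 fold change -0.047 with an SE of 0.13, adjusted p = 0.979). The KRT8 to KRT18 ratio was 0.471 and 0.563 with FABP4 against 0.509 and 0.439 with DMSO. The exons of KRT8 and KRT18 overlap by 525 bases on opposite strands, and strandedness is not given in the sources used here, so reads there cannot be told apart. Of the windows of KRT18, 25.0% occur in other genes, all 22 of them named as its pseudogenes. KRT7, a type II keratin gene of ducts and glands, had 2.08 and 2.07 FPKM against 2.64 and 2.78 FPKM (limma log2 fold change -0.27 with an SE of 0.14, adjusted p = 0.554). The KRT7 exons overlap those of KRT7-AS on the opposite strand by 282 bases (6.9%), and the same limit holds there. KRT19, the smallest type I keratin of simple epithelia, stayed at or below 0.22 FPKM.

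Skin keratins were few. KRT10, the type I keratin of the upper epidermis, had 14.18 and 12.11 FPKM with FABP4 against 11.94 and 11.85 FPKM with DMSO (limma log2 fold change 0.13 with an SE of 0.12, adjusted p = 0.862). Leaving out FABP4 replicate 1 brought the KRT10 log2 fold change to 0.024, and leaving out replicate 2 of that group brought it to 0.24. Its usual type II partner KRT1 was listed at 0 in all 4 libraries. KRT79, a type II keratin gene of the upper hair follicle, had 1.59 and 1.96 FPKM against 2.59 and 3.6 FPKM. Its groups lay apart, without passing (limma log2 fold change -0.55 with an SE of 0.15, adjusted p = 0.126). KRT15, a type I keratin gene of basal epidermis and follicle stem cells, had 2.45 and 2.53 FPKM against 2.73 and 2.77 FPKM (limma log2 fold change -0.10 with an SE of 0.13, adjusted p = 0.929). The basal epidermal pair KRT5 and KRT14 stayed at or below 0.17 FPKM.

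**Figure D2:**
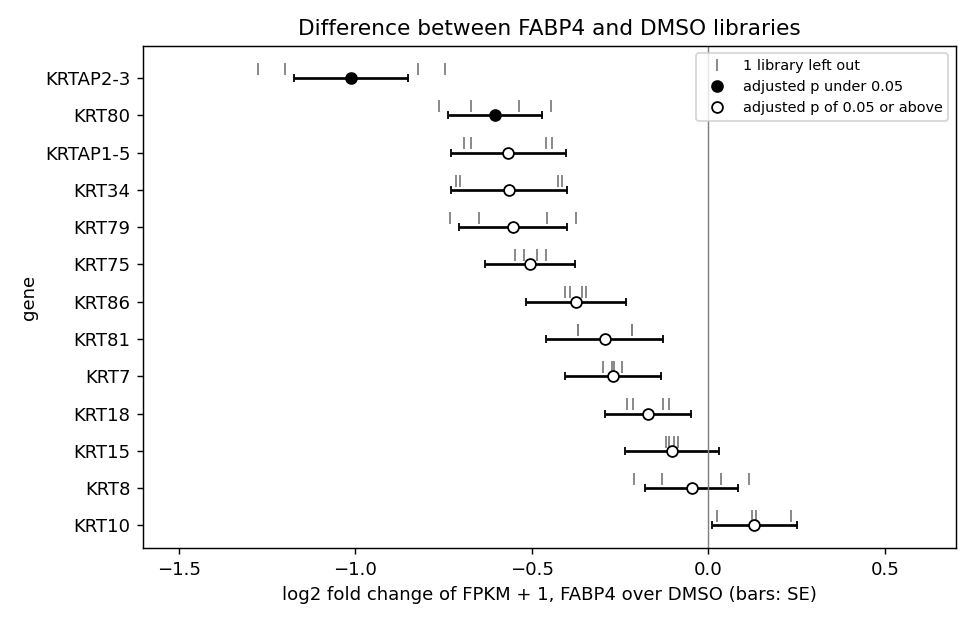
Log2 fold change of FPKM + 1, FABP4 over DMSO, for the 13 listed genes, with bars for the SE, filled points for a limma adjusted p under 0.05 and grey ticks for the value without each library in turn. KRTAP2-3 (-1.01) and KRT80 (-0.60) are the filled points, and the ticks of KRT8 lie on both sides of 0.

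Type II chains far outweighed type I chains. The 26 type II genes summed to 979.04 and 904.76 FPKM with FABP4 against 1234.32 and 1119.06 FPKM with DMSO, and the 28 type I genes to 83.67 and 77.98 against 92.53 and 85.86 FPKM. The ratio of the sums was 11.7 ± 0.0698 with FABP4 against 13.2 ± 0.216 with DMSO (SD, n = 2 each). Without KRT81 the type II sum was 169 ± 5.59 against 230 ± 11.3 FPKM (SD, n = 2 each). In every one of these sums both FABP4 libraries were below both DMSO libraries; no test was run on them.

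The listed genes came from 2 chromosomes. On chromosome 12, 8 of 27 members were listed, and on chromosome 17, 5 of 49, while none of the 9 on chromosome 11 or the 12 on chromosome 21 was. On chromosome 12 (GENCODE 29, GRCh38) KRT80 (52168996 to 52192000), KRT7 (52232520 to 52252186), KRT86 (52249300 to 52309163) and KRT81 (52285913 to 52291534) are the first 4 members in map order. KRT75 (52424070 to 52434525) stands alone between unlisted genes. KRT79 (52821410 to 52834295), KRT8 (52897187 to 52949954) and KRT18 (52948871 to 52952901) lie at the other end. On chromosome 17 KRTAP1-5 (41026026 to 41027202) and KRTAP2-3 (41059240 to 41060114) are near each other, with KRTAP1-3, KRTAP1-1, KRTAP2-1 and KRTAP2-2 between them at or below 0.25 FPKM. Of the 84 members not listed, 31 were at 0 in all libraries and none reached 1 FPKM in any.

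**Figure D3:**
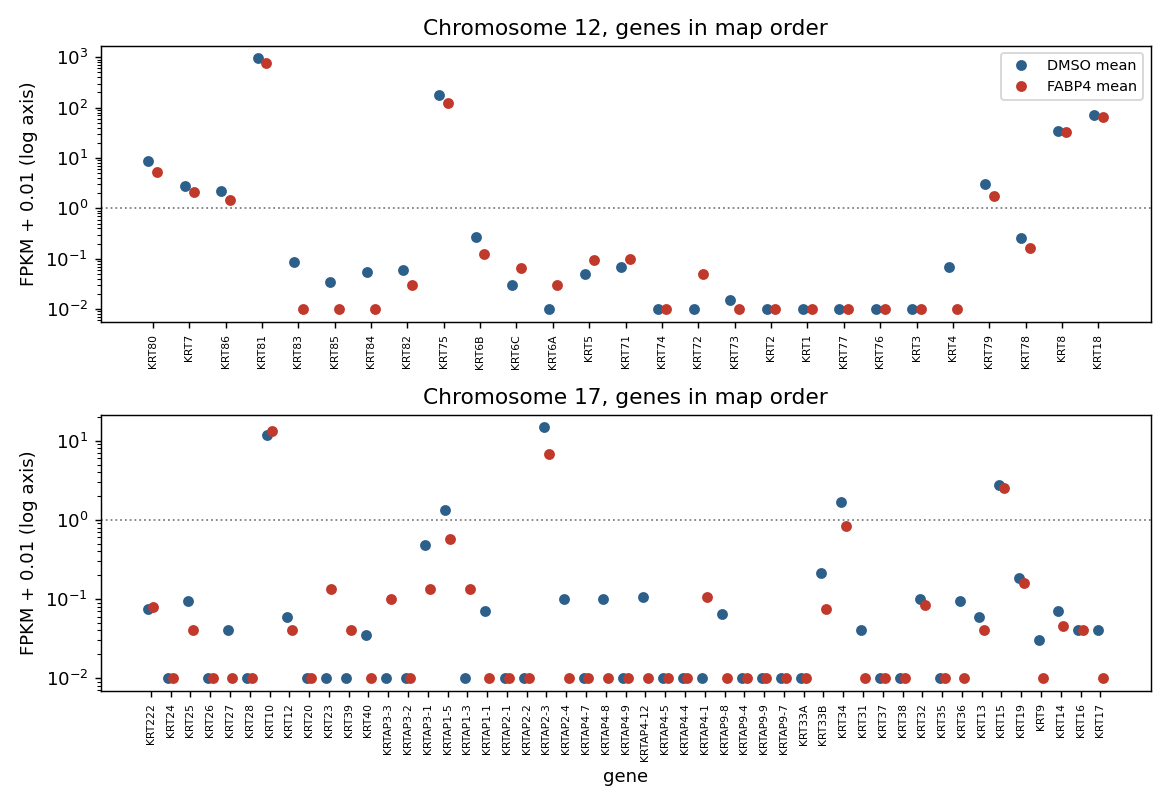
Mean FPKM + 0.01 (log axis, n = 2 libraries each) of every member on chromosomes 12 and 17 in map order, blue for DMSO and red for FABP4, with the dotted line at 1 FPKM. High genes such as KRT81 and KRT75 stand next to members near 0.

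Partner genes were taken from 3 lists. Of 9 tested genes of other intermediate filaments limma called none (2 had an unadjusted p under 0.05) and none is called in the authors' deposited table. VIM, the vimentin gene of mesenchymal cells, had 2958.06 and 2639.11 FPKM with FABP4 against 3364.2 and 3373.01 FPKM with DMSO (limma adjusted p = 0.796). LMNA, a nuclear lamin gene, had 276.13 and 271.81 FPKM against 322.84 and 283.85 FPKM (limma adjusted p = 0.874). VIM stood above the sum of all 97 members in every library. Of 7 tested desmosome and cytolinker genes, which anchor keratin filaments, limma called none (0 had an unadjusted p under 0.05), and none is called in the authors' deposited table. PLEC, the plectin gene, had 118 ± 21.0 against 123 ± 8.85 FPKM, and DST 18.9 ± 1.42 against 18.5 ± 0.940 FPKM. Of 6 tested epithelial regulators limma called none (0 had an unadjusted p under 0.05), and none is called in the authors' deposited table. CEBPB had 57.5 ± 3.04 against 53.5 ± 6.49 FPKM, and KLF5 7.97 ± 0.0636 against 9.04 ± 1.05 FPKM. The median log2 fold changes of these lists were -0.10, 0.024 and 0.054.

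Keratinocyte and epithelial marker genes were low for the most part. Of 16 keratinocyte and hair markers 4 were tested and limma called 0 (1 had an unadjusted p under 0.05), and none is called in the authors' deposited table. Their sum was 84.0 to 94.9 FPKM with FABP4 and 99.9 to 110 FPKM with DMSO, with LORICRIN, SPRR1A, SPRR1B and SPRR3 at 0 throughout. SBSN, the suprabasin gene of the epidermis, made up much of it, at 45.8 and 47.39 against 67.1 and 59.24 FPKM (limma adjusted p = 0.140). S100A3, a calcium-binding protein gene of the hair cuticle, had 32.52 and 23.22 against 25.5 and 22.43 FPKM. HOXC13, a transcription factor gene known to control hair keratins and named after its values were seen, had 14.07 and 10.83 FPKM against 13.65 and 15.34 FPKM (limma adjusted p = 0.696), and its groups overlapped. Of 9 epithelial surface markers 4 were tested and limma called 0 (1 had an unadjusted p under 0.05), and none is called in the authors' deposited table. Their sum was 45.8 to 53.2 FPKM with FABP4 against 38.5 to 40.0 FPKM with DMSO, and CDH1 and EPCAM stayed at or below 0.32 FPKM. MUC1, a mucin gene, made up most of it, at 39.21 and 45.72 against 32.67 and 31.23 FPKM (limma adjusted p = 0.191), and the claudin gene CLDN4 had 1.99 and 2.9 against 2.92 and 2.56 FPKM. The part of these markers in the lower levels of the members was not tested. Fewer cells with a transcript and less of it per cell cannot be told apart in bulk RNA.

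Of the genes that define chondrocytes, some were measured and others were near 0. SOX9 had 9.40 ± 0.827 FPKM with FABP4 and 11.3 ± 0.0354 FPKM with DMSO, and ACAN 3.11 ± 0.820 and 3.09 ± 0.290 FPKM. COL11A2, a cartilage collagen gene, had 3.98 ± 0.0283 and 2.93 ± 0.205 FPKM (limma adjusted p = 0.326), whereas COL2A1 stayed at or below 0.05 FPKM and COL9A1 and CNMD were listed at 0. Of 15 chondrocyte markers 3 were tested and limma called 0 (1 had an unadjusted p under 0.05), and none is called in the authors' deposited table. The fibroblast-type collagen gene COL1A1 stood at 959 ± 233 and 981 ± 95.3 FPKM, and COL1A2 at 474 ± 91.8 and 466 ± 24.9 FPKM. Some other markers of the fibroblast list were low: THY1, POSTN, DCN and LUM stayed at or below 0.39 FPKM, and COL3A1 at or below 1.27 FPKM. The rest were higher. PDGFRB had 9.46 and 11.4 FPKM with FABP4 against 11.51 and 10.59 FPKM with DMSO. FAP had 4.17 and 5.03 against 4.54 and 5.19 FPKM. PDGFRA had 3.75 and 4.3 against 2.88 and 2.97 FPKM (limma adjusted p = 0.315), so both FABP4 libraries were above both DMSO libraries. Of 11 fibroblast markers 7 were tested and limma called 0 (1 had an unadjusted p under 0.05), and none is called in the authors' deposited table.

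**Figure D4:**
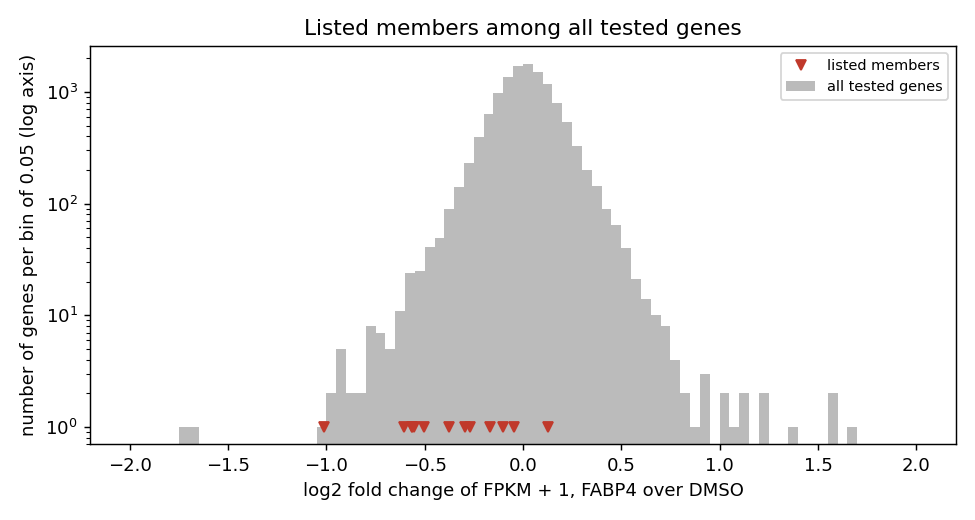
Histogram of the log2 fold change of FPKM + 1, FABP4 over DMSO, for all 12490 tested genes in bins of 0.05 (log axis for the number of genes), with red marks at the 13 listed genes. Of the marks, 12 lie below 0, and that of KRTAP2-3, at -1.01, is the lowest.

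By the authors' own test the same libraries gave 3 calls among the 71 members that have a q: KRT75, KRTAP2-3 and KRT80, all lower in the authors' deposited table. Over all 18019 genes with a q, 0.488% are called lower in the authors' deposited table at the same threshold of 0.05. KRTAP2-3 and KRT80 were thus called by both tests, and KRT75 by DESeq2 alone.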

How the data were processed

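RNA-seq libraries of C28/I2 cells were grouped by the treatment label. Per the file headers, the deposited table holds FPKM by library, and the authors' DESeq2 results as log2 fold changes, p-values and q-values. The authors' sign matched FABP4 over DMSO in the FPKM for 207 of the 208 genes beyond 0.5 on the log2 scale. The submitters' processing notes list RSEM 1.2.12, Bowtie2 2.2.5, the authors' DESeq2 1.4.5 and, as build, GRCh38.p13. Their roles, the annotation, the filters and the strandedness are not stated. Genes that reached 1 FPKM in 2 or more libraries were tested on log2(FPKM + 1) with limma 3.58.1 in R 4.3.3 (mean-variance trend, two-sided, Benjamini-Hochberg at 0.05 over 12490 genes). Fold changes on this scale understate low genes. The procedure was also run on simulated data with independent normal values, which does not show how it performs on these libraries.

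Depth was estimated from low FPKM of single-exon genes, on the assumption that their values are multiples of what 1 fragment is worth. The search was held to a preset range, because a multiple of the true depth would also give whole numbers. It gave 11350000 to 12025000 fragments in the FABP4 libraries and 12525000 to 12850000 in the DMSO libraries. At these depths 61.7 to 71.4% of the low values used came within 0.15 of a whole fragment, so fragment numbers are approximate and the count test was not run. They were computed with the longest GENCODE 29 transcript and a fitted fragment length of 270 bases. FPKM totals were 582695 to 632473.

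Named are the listed members with values, those nearest the threshold, the called genes of each partner or marker list or else its most abundant ones, and a few lower members or markers at or near 0, named after their values were seen. The fibroblast list is named in full. The members and lists were chosen with earlier results of these data known. Alternatives changed the pseudocount, filter, scaling, variance moderation, replicate block and libraries.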

Additional observations from a re-analysis of the deposited data

How the results depend on the processing

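With 2 libraries a group, levels near 1 FPKM rest on few fragments. A fit without 1 library leaves 1 in its group, which shows no spread of its own, so calls kept or lost in such fits are weak evidence. Of the 13 listed genes, 2 were called in limma; the number was 1 with a pseudocount of 0.1, without the mean-variance trend and with the replicate block, 0 without the filter on low values and after quantile normalization (with an unadjusted p under 0.05 in 13 of all 97 members, then tested, and in 9 of the 13 listed), 4 with robust variance moderation, 6 at equal totals, and 1 to 3 without 1 library. All these calls were lower. Over all genes, 74 were called (37 higher, 37 lower); the number was 0 without the filter (1710 at an unadjusted p under 0.05), 180 at equal totals (65 higher, 115 lower), 10 after quantile normalization (3 higher, 7 lower, and 1214 at an unadjusted p under 0.05), 164 with robust variance moderation, 47 with the replicate block, and 49 to 150 without 1 library. The partner lists had no call in limma under any of the 13 alternatives (0 to 3 genes at an unadjusted p under 0.05). No label says that equal replicate numbers mark a shared culture or day. The deviations of same-numbered libraries from their group means correlated at -0.119, and with the block the KRT80 call was lost (limma adjusted p = 0.0706, where the alternatives span 0.00502 to 0.532). The KRT8 log2 fold change was -0.21 to 0.12 without 1 library, above 0 at 0.036 without FABP4 replicate 1 and at 0.12 without DMSO replicate 1. For the other 12 genes the direction held under every alternative that could test them. KRTAP1-5 was not tested with a filter on the mean. The causes of these differences were not tested.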
